A study of Mus musculus with 18 samples.

Results

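Among nuclear RNAs of mouse embryonic stem cells, 16 protein-coding genes formed the group lost fastest after transcription was stopped with actinomycin D. The level used was CPM, the reads of a gene per 1000000 gene reads of its library, averaged over replicates. A gene was taken if it lay on an autosome, had at least 10 CPM in untreated Ythdc1 control nuclei and had at most 16.7% of that level after 3 h of the drug, with histone and Zfp genes left out. Of 8175 genes that met every other condition, 16 met this limit: Clk1, Nodal, Ccnl1, Gapdh, Ifrd1, Dusp1, Myc, Ccn1, Lemd1, Trib1, Jrk, Fam83e, Rnf225, Dusp6, Bambi and Spry4. All 16 also passed the filter on low counts in both model fits. The genes were chosen by their control CPM at 0 h and 3 h, so their fall there is given as a description, without a test.

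The series holds 18 libraries in 9 groups of 2, made from ribosomal-RNA-depleted nuclear RNA of C57BL/6 embryonic stem cells. In the Ythdc1 experiment, cells of genotype Ythdc1_Control and cells labelled cKO (conditional knockout) were collected after 0, 3 and 6 h with 5 µg/ml actinomycin D. In the Mettl3 experiment, Mettl3_Control cells and 2 lines, labelled KO1 and KO2, were collected at 0 h. The labels of every library, those at 0 h included, give actinomycin D at 5 µg/ml. All cells grew with serum, LIF, the GSK3 inhibitor CHIR99021 and the MEK inhibitor PD0325901, and 0.1 µl of ERCC spike-in RNA went into each sample. YTHDC1 binds N6-methyladenosine (m6A) in nuclear RNA, and METTL3 is the catalytic subunit of the enzyme that writes it. The question of the series was how nuclear RNA decays without YTHDC1. The labels used here do not say how the alleles were made or when deletion was induced, which exons they remove, or whether replicates were separate cultures, so the p-values measure the spread between these libraries.

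Actinomycin D blocks transcription, so what happens to an RNA afterwards shows how quickly the existing molecules are degraded or leave the nucleus. A nuclear fraction holds unfinished, unspliced and retained transcripts as well as finished ones. Immediate early genes and the feedback inhibitors of growth factor signalling are known for short-lived RNAs, often with AU-rich elements in the 3′ UTR that recruit deadenylases. Transcripts of the splicing kinase gene Clk1 are known to be kept in the nucleus with introns unspliced.

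Gene reads numbered between 4950973 and 30989044 per library, and the smallest was replicate 1 of cKO at 6 h. Ythdc1 itself was at 144.7 CPM in control and 134.4 CPM in libraries labelled cKO at 0 h, a log2 fold change of -0.07 ± 0.079. At 3 h it stood at 52.1 CPM in control and 15.0 CPM in cKO, and by 6 h at 45.0 CPM in control and 18.7 CPM in cKO. Mettl3 was at 35.1 CPM in its control, 31.6 CPM in KO1 (-0.10 ± 0.077, adjusted p = 0.316) and 22.0 CPM in KO2 (-0.61 ± 0.081, adjusted p = 7.42e-10). A count per gene does not show whether exons are missing, so the groups are called by their labels. All 9 embryonic stem cell markers were at 1 CPM or more in every group. Spike-in reads were 0.0272% to 0.0277% of gene reads in cKO at 3 h, against 0.0961% to 0.101% in cKO at 0 h and 0.185% to 0.189% at 6 h, and this difference bears on every change that uses the cKO 3 h libraries. In control nuclei the mean share was 0.0784%, 0.110% and 0.129% at 0, 3 and 6 h.

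Sequences are shown for the members in which a script found a motif tied to rapid turnover or to inducible transcription. The AU-rich core TATTTAT was present in the annotated 3′ UTR of 5 of the 16 genes. For 4 of them the occurrence shown is the one that, with 9 bases on each side, held the most ATTTA words, or the first on a tie. On the transcript strand and with the core in capitals, it reads as follows in GENCODE M21.
Nodal, 3′ UTR bases 318 to 324: atatatatgTATTTATttttgatgc
Dusp1, 3′ UTR bases 104 to 110: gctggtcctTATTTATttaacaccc
Ccn1, 3′ UTR bases 649 to 655: aagagaattTATTTATaaaattaat
Rnf225, 3′ UTR bases 2146 to 2152: ttgaattttTATTTATacttttaat
Dusp1 held 3 such cores, Ccn1 held 2 and Spry4 held 4. The share of members with the core, 31.3%, was near the 30.2% among the 8173 eligible genes with an annotated transcript. At least 2 cores were found in 18.8% of members and 10.4% of eligible genes. Myc, whose RNA is known for AU-rich decay, has no TATTTAT in the annotated 3′ UTR that was searched.

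RefSeq promoters (GRCm38.p6) were found for 10 of the 16 genes, as 11 promoters. In the 250 bases before the start, searched on both strands, the cAMP response element TGACGTCA was present in Ccnl1 and Dusp1, and in 1.55% of all 32851 promoters. TATAAA was present in Ccn1 and in 12.4% of all promoters, and CACGTG in Dusp1 and in 6.02%. No member promoter held TGANTCA (6.75% of all) or a CArG box (1.47%), and no 2 matches of different motifs overlapped. The stretches with matches, 80 bases each on the gene's own minus strand with the motifs in capitals, were these.
Ccnl1, chr3:65958250-65958329: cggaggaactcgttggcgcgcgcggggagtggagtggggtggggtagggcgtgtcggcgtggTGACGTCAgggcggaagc
Ccn1, chr3:145649986-145650065: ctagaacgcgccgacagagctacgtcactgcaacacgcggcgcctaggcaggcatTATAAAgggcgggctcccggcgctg
Dusp1, chr17:26508573-26508652: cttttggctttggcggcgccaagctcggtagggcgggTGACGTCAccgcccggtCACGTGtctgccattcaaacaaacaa
Counted from the start, TGACGTCA lies at -18 to -11 in Ccnl1 and at -143 to -136 in Dusp1, and TATAAA at -25 to -20 in Ccn1. The TGACGTCA and CACGTG words are their own reverse complements, so each match counts on both strands. These are matches of letters and no binding was measured.

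The members are mostly compact genes with few introns. Their median gene span was 8382 bases, against 27256 bases for eligible genes, and 62.5% of members spanned at most 10000 bases, against 20.1% of eligible genes. The chosen transcripts had a median of 3.5 exons, against 10. Clk1 (13 exons), Ifrd1 (12) and Ccnl1 (11) were above the eligible median, while Jrk, Rnf225 and Spry4 had 2 exons each. The median 3′ UTR was 696 bases, against 1094, and GGACT, the commonest letters of an m6A site, occurred 1.59 times per kb of transcript, against 1.04. These values are descriptions of 16 chosen genes.

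**Figure D1:**
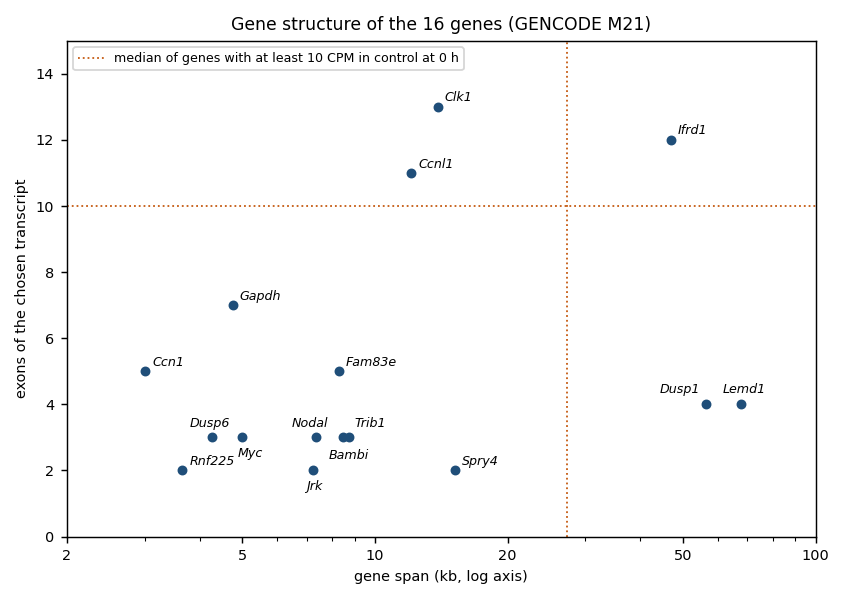
Gene span in kb (log axis) against exon number for the 16 genes, 1 point each; dotted lines mark the medians of eligible genes. Of the 16 points, 11 lie below and left of both lines, with 2 to 7 exons, while Ifrd1, Dusp1 and Lemd1 lie to the right. The annotated span of Dusp1 reaches far upstream of its RefSeq start.

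At 3 h the 16 genes held a median of 14.4% of their 0 h level in control nuclei, where the median eligible gene held 103%. The share was lowest in Spry4 (3.03%) and Fam83e (6.91%). Just inside the limit lay Trib1 (15.7%), Jrk (16.005%) and Dusp1 (16.4%), and just outside it Zbtb2 (17.6%), Osm (17.8%) and Enox1 (18.5%). Aarsd1 and BC030499 met the limit of loss but had 9.36 and 9.06 CPM at 0 h. In 13 of the 16 both replicates met the limit singly. The exceptions were Dusp1 (18.9% in replicate 2), Jrk (21.4% in replicate 1) and Bambi (20.2% in replicate 1).

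**Figure D2:**
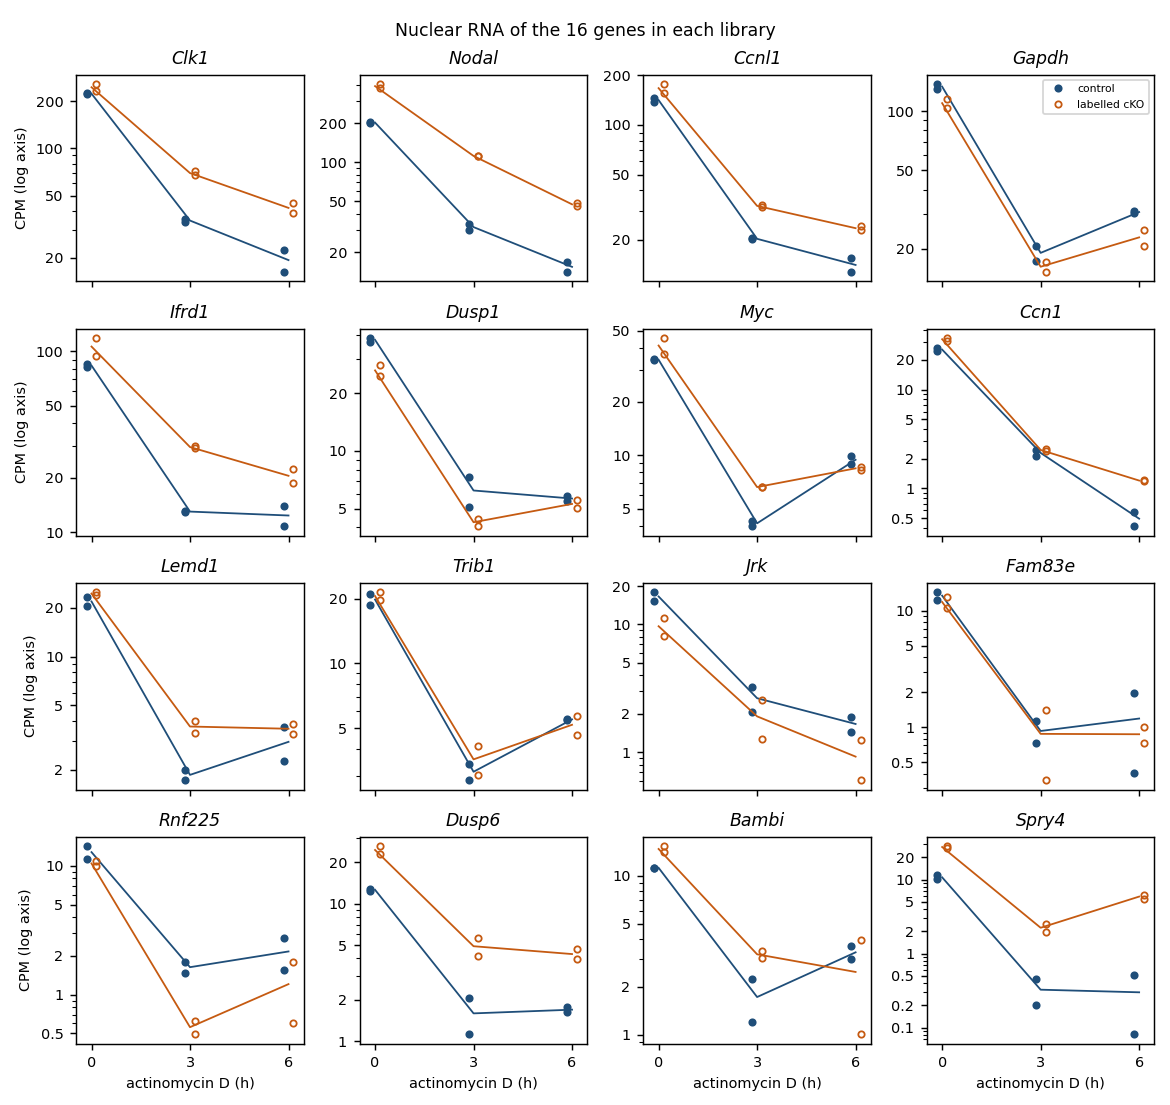
CPM of each gene (log axis, own scale per gene) against hours of actinomycin D; filled points are control libraries, open points libraries labelled cKO, and lines join the means of 2. Every gene falls from 0 h to 3 h in both genotypes, while from 3 h to 6 h some go on falling (Nodal, Clk1, Ccn1) and others turn up (Gapdh, Trib1).

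The main comparison asked whether the same genes were lost in libraries labelled cKO, none of which the choice of genes had used. All 16 were called lower there at 3 h than at 0 h, against 29.8% of the 17900 genes tested. For each of the 16, every 3 h library also lay below every 0 h library. This was not counted over all genes, so nothing is read from it. The median log2 fold change was -2.55 for the 16 genes and 0.03 for all genes. Fold changes and adjusted p-values here and below come from the quasi-likelihood F test of edgeR, with Benjamini-Hochberg adjustment over every gene in the fit. All 16 were still lower at 6 h than at 0 h (median -2.52, all genes 0.01), where 31.3% of genes were called lower. Both contrasts share the 0 h libraries. The members held a median of 16.8% of their cKO 0 h level at 3 h (lowest 5.35%, highest 28.7%) and 16.9% at 6 h (3.71% to 25.1%). The limit of 16.7% at 3 h was met in cKO by 15 of the eligible genes, and 8 of these were members. So 8 of 15 genes there and 8 of 16 genes here were shared. Ythdc1 itself, at 134.4 CPM at 0 h and 15.0 CPM at 3 h in cKO, was among the other genes there.

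TMM factors set these changes against a library's typical gene. Scaled to spike-in reads instead, the median change in cKO from 0 h to 3 h was 1.86 for all genes and -0.72 for the members. Of the members, 11 of 16 kept a call as lower, beside 482 of the 17900 genes tested. Clk1, Nodal and Ifrd1 then stood at 0.027, 0.045 and 0.0019 (adjusted p from 0.575 to 0.986), and Jrk and Bambi lost the call. At 6 h the same scaling gave a median of -3.49 for the members and -0.96 for all genes. All 16 were called lower, beside 12249 of the 17900 genes. In control nuclei, spike-in scaling gave member medians of -3.29 at 3 h and -3.59 at 6 h, beside -0.46 and -0.88 for all genes. More nuclear RNA and less added spike-in cannot be told apart in the low spike-in share of the cKO 3 h libraries.

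**Figure D3:**
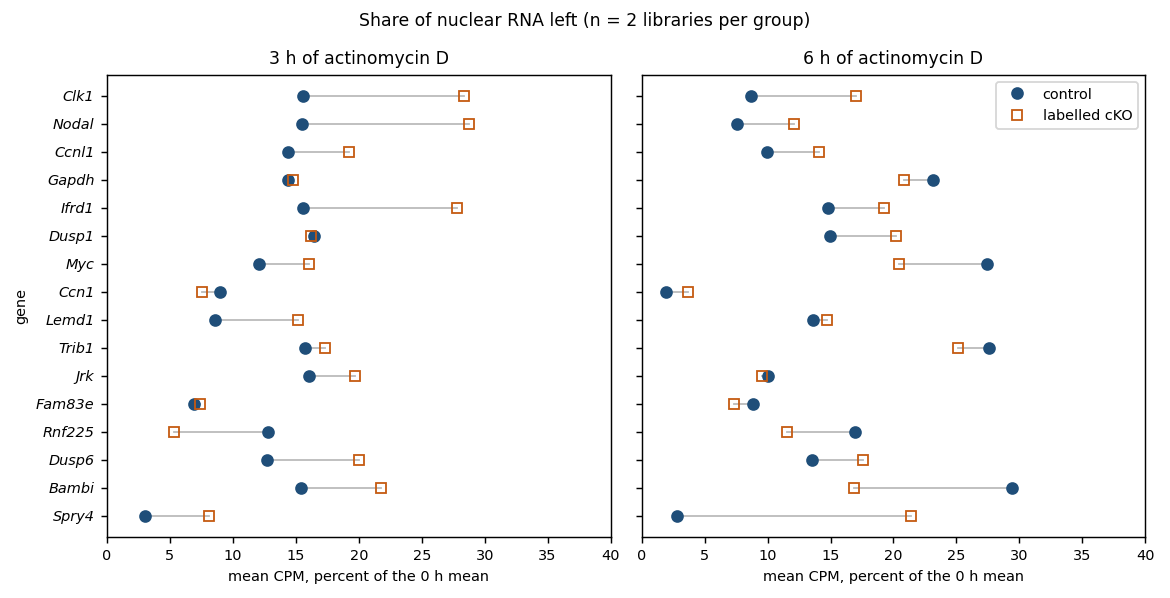
Mean CPM at 3 h (left) and 6 h (right) as a percent of the 0 h mean, for control (filled circles) and libraries labelled cKO (open squares), each a ratio of means of 2 libraries. At 3 h Clk1, Nodal and Ifrd1 hold 27.8% to 28.7% of their 0 h level in cKO. In control they hold 15.5% to 15.6%, but the control 3 h libraries chose the genes, so nothing is read from this gap. At 6 h Spry4 stands furthest apart.

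A pair of RNA processing genes were among the most abundant members. Clk1 (ENSMUSG00000026034.17, chr1:58410189-58424066, minus strand) encodes a kinase that phosphorylates SR splicing factors. It had 225 and 221 CPM in control at 0 h, 35.3 and 33.97 at 3 h, then 22.5 and 16.3 at 6 h. In cKO it had 257 and 233 CPM at 0 h, 71.7 and 67.4 at 3 h, then 44.8 and 38.6 at 6 h. Both cKO libraries lay above both controls at each time. Its change in cKO from 0 h to 3 h was -1.81 ± 0.083 (log2, SE), or 0.027 with spike-in scaling. In control it was -2.65 ± 0.089, from libraries that chose the gene, so nothing is read from the gap at 3 h. At 6 h its level in cKO was higher than in control by 0.98 ± 0.11 (adjusted p = 7.58e-09). This difference was 0.56 with spike-in scaling (adjusted p = 5.75e-05). Before the drug the difference was 0.17 ± 0.079, given without a test because the control libraries chose the gene.

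Ccnl1 (ENSMUSG00000027829.15, chr3:65946151-65958249, minus strand) encodes cyclin L1, a partner of CDK11 kinases tied to splicing. Control libraries had 145 and 138 CPM at 0 h, 20.5 and 20.2 at 3 h, then 12.8 and 15.4 at 6 h. Those labelled cKO had 178 and 157, 32.6 and 31.9 and 23.03 and 24.2 CPM at these times. Both cKO libraries were above both controls at each time. The difference at 6 h was 0.63 ± 0.11 (adjusted p = 1.94e-05), which spike-in scaling reduced to 0.21 (adjusted p = 0.122). Reads of the antisense gene Gm37305, which overlaps Ccnl1, fell from 6.11 to 1.62 CPM in control, and the strand setting of the counts is not given in the sources used here.

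Secreted signals and a receptor antagonist formed the next group. Nodal (ENSMUSG00000037171.6, chr10:61417972-61425338, plus strand) encodes a TGF-beta family ligand that acts through SMAD2 and SMAD3. It had 205 and 200.4 CPM in control at 0 h, 33.2 and 29.6 at 3 h, then 16.8 and 14.1 at 6 h. Nodal started higher in cKO, at 374 and 405 CPM, and had 111 and 113 at 3 h, then 46.1 and 48.2 at 6 h. No cKO library overlapped a control at any time. At 6 h cKO was higher by 1.52 ± 0.091 (adjusted p = 3.55e-16; 1.09 with spike-ins), beside 0.97 ± 0.067 before the drug. Nodal was the member that fell least in cKO by 3 h (-1.79 ± 0.068), and it fell by a further log2 change of -1.20 ± 0.075 between 3 h and 6 h (adjusted p = 1.22e-15).

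Ccn1 (ENSMUSG00000028195.4, chr3:145646976-145649981, minus strand; formerly Cyr61) encodes a matricellular protein and is a classical immediate early gene. Control levels were 24.7 and 26.2 CPM at 0 h, 2.11 and 2.46 at 3 h, then 0.415 and 0.572 at 6 h, the last from 4 and 7 reads. In cKO they were 33.3 and 31.4, 2.40 and 2.50 and 1.21 and 1.19 CPM, with 6 and 21 reads at 6 h. Ccn1 showed the deepest loss of the 16 by 6 h in cKO (-4.70 ± 0.22, adjusted p = 5.7e-20). Its difference from control at 6 h, 1.12 ± 0.47, narrowly missed the threshold (adjusted p = 0.0501), and with DESeq2 size factors or gene totals as the scale it passed (adjusted p = 0.0481 and 0.0294). Bambi (chr18:3507923-3516404, plus strand), which encodes a pseudoreceptor that dampens TGF-beta and BMP signals, had 11.2 and 11.3 CPM in control and 15.4 and 14.1 in cKO at 0 h. It had 3.01 and 3.59 CPM in control and 1.01 and 3.96 in cKO at 6 h, where the cKO replicates spanned the control values and no difference was called (-0.19 ± 0.33, adjusted p = 0.671).

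Genes that restrain or tune MAP kinase signalling followed different courses. Spry4 (chr18:38586247-38601415, minus strand) encodes a Sprouty protein that restrains receptor tyrosine kinase signalling. In control it had 10.1 and 11.4 CPM at 0 h, 0.452 and 0.200 at 3 h, then 0.519 and 0.0817 at 6 h, the last 2 times resting on 1 to 6 reads per library. In cKO it had 28.5 and 26.7 CPM at 0 h, 1.98 and 2.50 at 3 h, then 6.26 and 5.54 at 6 h, or 31 and 98 reads. Spry4 was thus above every control library at each time, and in cKO its level rose between 3 h and 6 h (1.38 ± 0.25, adjusted p = 3.65e-05). That rise was -1.42, a fall, with spike-in scaling. At 6 h Spry4 had the largest difference between genotypes of the 16, 4.23 ± 0.43 (adjusted p = 2.21e-10; 3.79 with spike-ins), beside 1.39 ± 0.18 before the drug. It held 2.79% of its 0 h level at 6 h in control and 21.4% in cKO. The control replicates at 6 h had 5 reads and 1 read. Without replicate 1 of these the genotype difference was 5.87 and without replicate 2 it was 3.35, and both kept the call (adjusted p = 3.7e-10 and 1.8e-07).

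Dusp6 (ENSMUSG00000019960.8, chr10:99263231-99267489, plus strand) encodes the phosphatase that inactivates ERK in the cytoplasm. It had 12.3 and 12.9 CPM in control at 0 h, 1.13 and 2.06 at 3 h, then 1.76 and 1.63 at 6 h. In cKO it had 26.2 and 22.8, 5.65 and 4.16 and 4.65 and 3.96 CPM, above control at all 3 times. The 6 h difference was 1.18 ± 0.31 (adjusted p = 0.00190; 0.75 with spike-ins, adjusted p = 0.0369), close to the 0.99 ± 0.17 seen before the drug.

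Dusp1 (ENSMUSG00000024190.6, chr17:26505590-26562128, minus strand) encodes a nuclear phosphatase of p38, JNK and ERK. Control libraries had 36.99 and 38.7 CPM at 0 h, 5.12 and 7.33 at 3 h, then 5.50 and 5.80 at 6 h, and cKO libraries 24.4 and 28.1, 4.45 and 4.06 and 5.05 and 5.54. It was lower in cKO before the drug (-0.50 ± 0.13), and at 6 h the replicates of the genotypes lay within 1 CPM of each other (-0.18 ± 0.21, adjusted p = 0.534). Its annotated span of 56539 bases includes the antisense gene Ergic1, which had 107.6 CPM at 0 h and 130.4 at 3 h in control. The Dusp1 promoter stretch shown above, chr17:26508573-26508652, lies inside this span, so the span reaches far upstream of the RefSeq start. Trib1 (ENSMUSG00000032501.9, chr15:59648350-59657099, plus strand), a pseudokinase gene whose protein guides the COP1 ubiquitin ligase, had 18.7 and 21.1 CPM in control at 0 h, 2.86 and 3.40 at 3 h, then 5.50 and 5.47 at 6 h. Its cKO levels of 19.7 and 21.6, 3.03 and 4.11 and 4.65 and 5.71 CPM were close to these, and the genotypes overlapped at 0 h, 3 h and 6 h (-0.13 ± 0.22 at 6 h, adjusted p = 0.668).

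Myc (ENSMUSG00000022346.15, chr15:61985391-61990374, plus strand) encodes a transcription factor of growth and has a textbook short-lived RNA. Control nuclei had 34.3 and 34.6 CPM at 0 h, 4.29 and 3.997 at 3 h, then 9.96 and 8.91 at 6 h, and cKO nuclei 37.1 and 45.6, 6.63 and 6.61 and 8.28 and 8.60. Both genotypes were lowest at 3 h. The 6 h level was 228% of the 3 h level in control, a log2 change of 1.34 ± 0.18 that is given without a test. In cKO it was 0.40 ± 0.17 (adjusted p = 0.0648), and the genotypes did not differ by the test at 6 h (-0.25 ± 0.17, adjusted p = 0.239). Ifrd1 (ENSMUSG00000001627.12, chr12:40201567-40248504, minus strand), which encodes a transcriptional co-regulator, had 81.7 and 85.1 CPM in control at 0 h, 13.1 and 12.9 at 3 h, then 13.9 and 10.8 at 6 h. Its cKO levels were 119 and 93.9, 29.2 and 29.8 and 22.2 and 18.7 CPM, above control at each time. At 6 h the difference was 0.59 ± 0.14 (adjusted p = 0.000884), but 0.16 with spike-in scaling (adjusted p = 0.337). Jrk (ENSMUSG00000046380.3, chr15:74702301-74709535, minus strand), a gene of a DNA-binding protein related to transposases, ran from 15.2 and 17.96 CPM at 0 h to 1.45 and 1.88 at 6 h in control and from 8.14 and 11.2 to 0.606 and 1.24 in cKO (-0.74 ± 0.44 between genotypes at 6 h, adjusted p = 0.183).

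Gapdh (ENSMUSG00000057666.18, chr6:125161715-125166467, minus strand), the glycolytic enzyme gene often used as a stable reference for cytoplasmic mRNA, was a member. It had 129 and 137 CPM in control at 0 h, 17.5 and 20.7 at 3 h, then 30.3 and 31.2 at 6 h. In cKO it had 104 and 116, 17.2 and 15.3 and 20.8 and 24.95 CPM. Both genotypes thus fell to a low at 3 h and were higher again at 6 h, in cKO by 0.58 ± 0.11 (adjusted p = 6.25e-05). Spike-in scaling turned that rise to -2.23, and leaving out replicate 2 of cKO at 6 h ended its call (0.38, adjusted p = 0.116). At 6 h, Gapdh alone among the 16 was called lower in cKO against control (-0.49 ± 0.11, adjusted p = 0.000307). Before the drug this difference was -0.25 ± 0.084, given without a test because the control libraries chose the gene. Gapdh held 23.1% of its 0 h level at 6 h in control and 20.9% in cKO. Gapdh has many near-identical processed pseudogenes, and reads that align to several places enter no gene, so its level rests on its unique parts and is uncertain. It also overlaps Iffo1 on the other strand, at 19.5 CPM at 0 h and 18.3 at 3 h.

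A trio of less studied genes completed the group. Lemd1 (ENSMUSG00000079330.8, chr1:132191431-132259227, plus strand), of the LEM-domain family, had 20.4 and 23.3 CPM in control at 0 h, 1.73 and 1.998 at 3 h, then 2.28 and 3.68 at 6 h, and 23.9 and 24.99, 4.02 and 3.38 and 3.84 and 3.34 in cKO. Fam83e (ENSMUSG00000054161.12, chr7:45721212-45729492, plus strand), of a family of casein kinase anchors, had 14.5 and 12.5 CPM at 0 h and 1.13 and 0.733 at 3 h in control, and 10.6 and 13.2 and 0.353 and 1.41 in cKO, where 5 and 27 reads lay behind the 3 h values. Rnf225 (ENSMUSG00000033967.4, chr7:12927416-12931072, plus strand), a RING finger gene, had 11.3 and 14.3 CPM at 0 h and 1.81 and 1.47 at 3 h in control. It had 10.01 and 10.9 CPM at 0 h and 0.494 and 0.625 at 3 h in cKO, from 7 and 12 reads, and fell in cKO by 3 h (-4.16 ± 0.33, adjusted p = 1.54e-13). None of the 3 differed between genotypes at 6 h by the test, with values of 0.077 ± 0.27 for Lemd1, -0.57 ± 0.64 for Fam83e and -0.67 ± 0.38 for Rnf225 (adjusted p = 0.845, 0.509 and 0.155).

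From 3 h to 6 h in cKO the members divided. Clk1, Nodal, Ccnl1, Ifrd1 and Ccn1 fell further, which is 5 of 16 beside 18.8% of all genes called lower. Gapdh, Trib1, Rnf225 and Spry4 rose, which is 4 of 16 beside 15.3% called higher. The other 7 were not called either way. The falls were -0.73 ± 0.092 in Clk1, -0.40 ± 0.098 in Ccnl1, -0.54 ± 0.12 in Ifrd1 and -0.996 ± 0.31 in Ccn1, and the rises 0.61 ± 0.22 in Trib1 and 1.42 ± 0.45 in Rnf225. The Rnf225 libraries overlapped, at 0.494 and 0.625 CPM at 3 h, then 0.606 and 1.81 at 6 h. Without replicate 2 of cKO at 6 h, Gapdh, Ifrd1, Ccn1, Trib1 and Rnf225 lost their calls, and Trib1 and Rnf225 lost theirs also without replicate 1 of cKO at 3 h. Rnf225 and Ccn1 were not called without replicate 2 of cKO at 3 h (adjusted p = 0.0508 and 0.0606). Scaled to spike-ins, all 16 fell between 3 h and 6 h, with a median of -2.92 beside -2.85 for all genes. Of the 17900 genes tested, 17412 were called lower under this scaling. In control nuclei the median 6 h level was 101% of the 3 h level for the members and 90.8% for eligible genes, with Ccn1 lowest (21.6%) and Myc highest (228%).

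**Figure D4:**
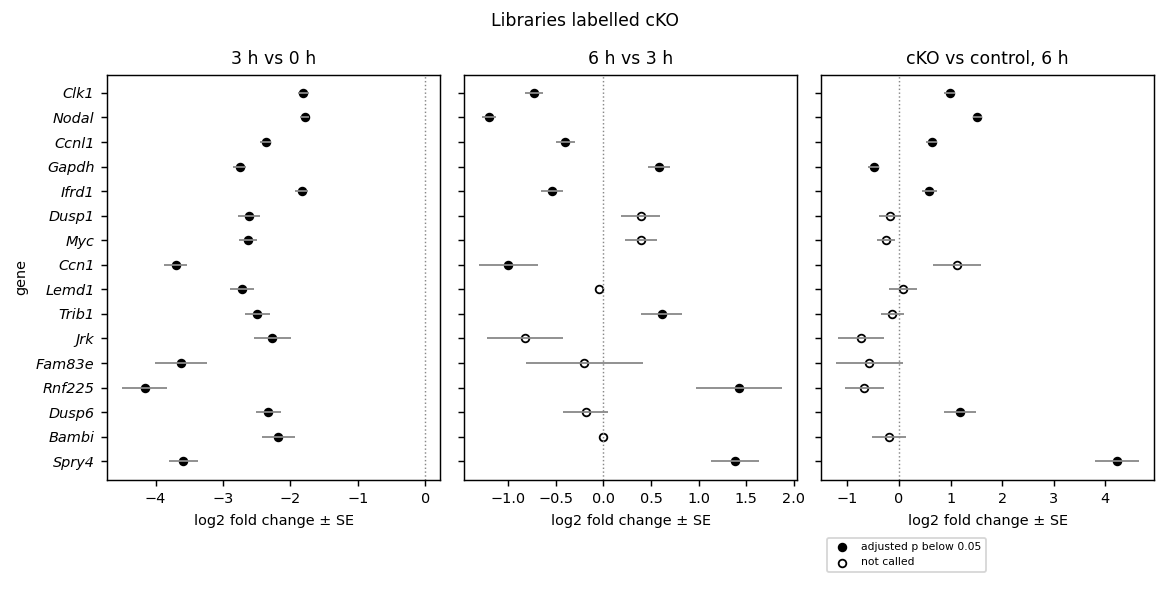
Log2 fold changes with SE from edgeR in libraries labelled cKO at 3 h against 0 h, at 6 h against 3 h, and of cKO against control at 6 h; filled points have an adjusted p below 0.05, and Lemd1 and Bambi have no SE bar in the middle panel because their change was near 0. All points lie left of 0 in the first panel, they lie on both sides of it in the second, and Spry4 at 4.23 is furthest right in the last.

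Set against control at 6 h, 6 of the 16 were higher in cKO (Clk1, Nodal, Ccnl1, Ifrd1, Dusp6 and Spry4) and 1 was lower (Gapdh). Among all genes tested, 19.7% were called higher and 22.7% lower. The median difference of the members was -0.03, beside -0.02 for all genes. Each of the 6 also stood higher in cKO before the drug, by 0.17 ± 0.079 (Clk1) to 1.39 ± 0.18 (Spry4). Gapdh stood lower then (-0.25 ± 0.084). The 6 h level alone therefore does not measure decay. The share left in cKO over the share left in control was above 1 in 13 of 16 genes at 3 h (median 1.34, eligible genes 1.07) and in 9 of 16 at 6 h (median 1.19, eligible genes 1.12). Because the genes were chosen for a low share in control at 3 h, nothing is read from the first of these counts. The second also contains the control 0 h libraries that chose the genes, so it and the ratios below are descriptions only. The ratio at 6 h was highest in Spry4 (7.65), Clk1 (1.96) and Ccn1 (1.91), and lowest in Bambi (0.573). For Spry4 it was 28.1 without replicate 1 of control at 6 h and 4.43 without replicate 2, and for Bambi it was 0.913 without replicate 1 of cKO at 6 h and 0.233 without replicate 2. Stem cell markers summed to 3091 to 3133 CPM in cKO and 3599 to 3609 in control at 6 h, and feeder fibroblast markers to 23.2 to 25.6 and 36.1 to 39.8 CPM. Their part in the differences was not tested. Replicate 1 of cKO at 6 h, the smallest library, held 5 reads of Bambi, and without replicate 2 there Bambi and Rnf225 were called lower as well, at -1.83 and -1.98. With spike-in scaling 4 genes were called higher (Clk1, Nodal, Dusp6 and Spry4) and 6 lower, beside 1180 and 8330 of the 17900 genes tested. Leaving both cKO 3 h libraries out of the fit changed none of the 16 calls at 6 h, for cKO against control or for 6 h against 0 h.

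The lists that hold a member are counted here over their other genes, with the members left out. From 0 h to 3 h in cKO, 29.8% of all genes tested were called lower and 29.6% higher, with a median of 0.03. Of the other immediate early genes, 16 of 20 tested were called lower and 0 higher (median -1.36). Of the other ligands and feedback genes of FGF and ERK signalling, 9 of 13 were lower and 1 higher (median -0.92). Of the other targets and feedback genes of BMP and TGF-beta signalling, 8 of 12 were lower and 1 higher (median -1.27). Of the other SR proteins and CLK kinases, 16 of 18 were lower and 0 higher (median -0.50, beside -1.81 ± 0.083 in Clk1). In the Myc family 4 of 9 were lower and 3 higher (median -0.22), and of polyamine and stress feedback genes 15 of 26 were lower and 5 higher (median -0.52). Many lists that hold no member were also mostly lower, so such falls are not particular to the lists above. Called lower were 21 of 29 ubiquitin ligase and deubiquitinase genes (3 higher) and 16 of 22 m6A machinery genes (4 higher). So were 16 of 23 deadenylation and AU-rich binding genes (4 higher) and 17 of 29 Polycomb and other chromatin regulators (3 higher). Nuclear RNA decay genes were more even, with 11 of 25 lower and 10 higher, as were pluripotency genes, with 12 of 23 lower and 10 higher. Of KLF and SP factors 14 of 19 were lower and 0 higher (median -0.80), and of circadian and PAR bZIP genes 11 of 16 were lower and 1 higher (median -0.76). WNT targets were called lower and higher in 5 of 14 each, and all 20 ribosomal protein genes listed for comparison were higher (median 1.01). These directions hold relative to other genes, since spike-in scaling puts the all-gene median of this contrast at 1.86.

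For cKO against control at 6 h, where 19.7% of all genes were called higher and 22.7% lower, the same lists were again counted without their members. The FGF and ERK list had 6 of 13 higher and 2 lower (median 0.50), and its members Spry4 and Dusp6 had stood higher before the drug too. The BMP and TGF-beta list had 3 of 12 higher and 2 lower, and the immediate early list 3 of 20 higher and 2 lower. SR proteins and CLK kinases had 8 of 18 in each direction, the Myc family 1 of 9 higher and 3 lower, and the polyamine and stress list 10 of 26 higher and 5 lower.

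The Mettl3 experiment gave the steady levels of the same genes with no drug series. In KO1, 10 of the 16 were higher than control and 4 lower, beside 23.9% and 22.2% of the 21802 genes tested. In KO2, 5 were higher and 9 lower, beside 24.4% and 26.4%. The lines share the 2 control libraries, so their changes are given side by side. In a direct test of the lines, 9 of the 16 were higher in KO1 than in KO2 and 4 lower, beside 24.5% and 21.6% of all genes. In bulk nuclei, a change in the share of cells that express a gene cannot be told apart from a change of RNA per cell.

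Spry4 had 28.5 and 30.03 CPM in the Mettl3 control, 99.6 and 98.7 in KO1 and 9.12 and 9.95 in KO2. It rose in KO1 (1.81 ± 0.064, adjusted p = 9.99e-40) and fell in KO2 (-1.55 ± 0.084, adjusted p = 3.89e-28). Dusp6 followed the same signs, at 10.7 and 10.1 CPM in control, 16.8 and 14.98 in KO1 and 3.41 and 4.53 in KO2 (0.67 ± 0.12 and -1.33 ± 0.15). These ERK feedback genes were therefore at opposite sides of the control in the lines. The other FGF and ERK genes had 3 of 13 higher and 5 lower in KO1, and 1 higher and 9 lower in KO2.

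Myc had 7.19 and 7.87 CPM in control, 33.2 and 34.5 in KO1 and 7.07 and 6.91 in KO2. It rose in KO1 by 2.22 ± 0.11 (adjusted p = 5.33e-31) and was not called in KO2 (-0.043 ± 0.13, adjusted p = 0.813). Ccn1 went the other way, with 46.9 and 46.99 CPM in control, 36.1 and 36.1 in KO1 and 132 and 126 in KO2 (-0.33 ± 0.059 and 1.53 ± 0.054). Gapdh was higher in KO1 (0.40 ± 0.033) and lower in KO2 (-0.23 ± 0.034), at 346 and 334 CPM in control, 428 and 434 in KO1 and 275 and 279 in KO2. The 7 fibroblast feeder markers summed to 205 to 221 CPM in the Mettl3 control, 189 to 193 in KO1 and 497 in KO2, with 5 of the 7 at 1 CPM or more in each group. In the Ythdc1 libraries they summed to 10.3 to 39.8 CPM. The 9 stem cell markers summed to 3260 to 3294 CPM in the Mettl3 control, 4351 to 4368 in KO1 and 2922 to 2934 in KO2, all 9 at 1 CPM or more. The 3 mesoderm markers summed to 8.36 to 9.44, 22.6 to 22.96 and 9.69 to 10.2 CPM in these groups, with 1, 2 and 2 of them at 1 CPM or more. The 2 neuroectoderm markers summed to 19.8 to 21.3, 6.29 to 6.78 and 5.66 to 5.72 CPM. The 4 endoderm markers were at 6.80 to 7.47, 3.13 to 3.30 and 2.33 to 2.69 CPM. No marker was at 0 in every library. The part of these markers in the Mettl3 changes of the 16 genes was not tested.

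Rnf225, Fam83e, Dusp1 and Bambi rose in both lines. Rnf225 had 2.98 and 3.23 CPM in control, 10.6 and 9.18 in KO1 and 16.8 and 16.9 in KO2, rises of 1.72 ± 0.16 and 2.50 ± 0.15 (adjusted p = 5.13e-16 and 1.58e-25). Dusp1 had 23.9 and 26.05 CPM in control, 37.9 and 39.9 in KO1 and 49.7 and 49.2 in KO2 (0.69 ± 0.073 and 1.05 ± 0.072). Fam83e rose by 0.81 ± 0.15 and 1.16 ± 0.15, and Bambi by 0.75 ± 0.11 and 0.68 ± 0.11. These 4 genes kept both rises with spike-in scaling, which called 7585 of 21802 genes higher in KO1 and 12359 in KO2. That scaling moved the all-gene median up by 0.18 in KO1 and 0.56 in KO2. It could hardly remove a rise, so nothing is read from this. Ccnl1 fell in both lines, from 189 and 203 CPM in control to 160.0 and 151 in KO1 and 116 and 118 in KO2 (-0.28 ± 0.041 and -0.68 ± 0.042). Lemd1 also fell (-0.27 ± 0.088 in KO1 and -1.03 ± 0.095 in KO2). Spike-in scaling ended the KO1 calls of Ccnl1 and Lemd1 (adjusted p = 0.0696 and 0.458).

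**Figure D5:**
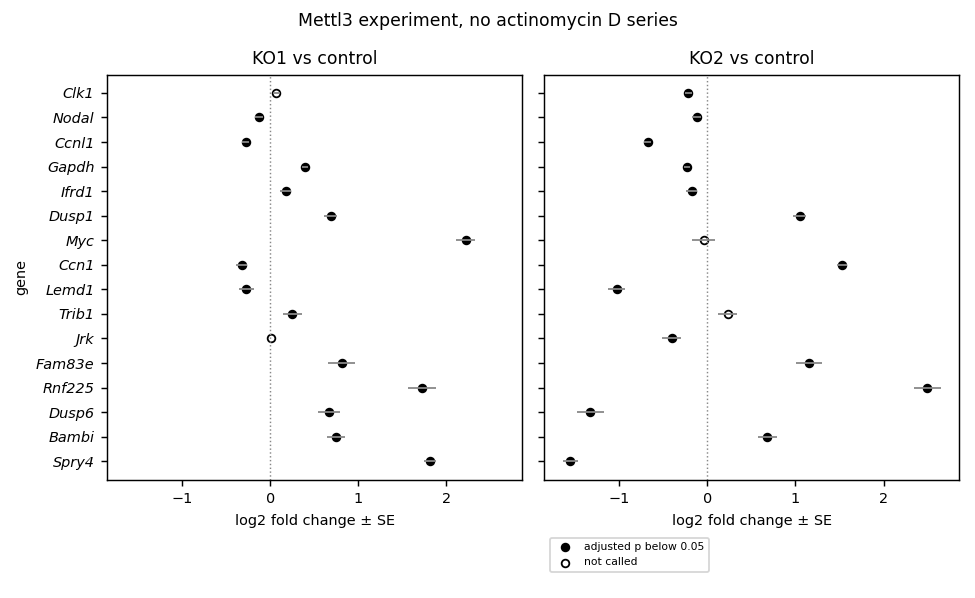
Log2 fold changes with SE from edgeR of the lines labelled KO1 and KO2 against the Mettl3 control (n = 2 libraries each, shared control); filled points have an adjusted p below 0.05, and Jrk has no SE bar in KO1 because its change was near 0. Spry4 and Dusp6 lie right of 0 in KO1 and left of it in KO2, Ccn1 the reverse, and Rnf225 lies right of 0 in both.

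The remaining Mettl3 changes were small. Clk1 stood at 0.067 ± 0.038 in KO1 (not called) and -0.22 ± 0.038 in KO2, Nodal at -0.13 ± 0.047 and -0.12 ± 0.048, Ifrd1 at 0.17 ± 0.061 and -0.18 ± 0.063, Trib1 at 0.25 ± 0.11 and 0.23 ± 0.11 (not called in KO2), and Jrk at 0.0045 (not called) and -0.41 ± 0.10. With the DESeq2 Wald test Nodal and Ifrd1 were called in neither line and Trib1 not in KO1. Spike-in scaling moved the all-gene median by 0.56 in KO2, from -0.03 to 0.53, and turned Clk1, Nodal, Gapdh and Ifrd1 from lower to higher there (0.35, 0.44, 0.33 and 0.39).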

How the data were processed

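Reads per gene are raw counts that the authors deposited for 18 libraries. Per the submitters' processing notes, CASAVA, Trimmomatic 0.38, HISAT2 2.1.0, HTSeq and the build mm10 were used; the sources used here give no other settings. Reads that HTSeq gave to no feature were 18.0% to 53.6% of uniquely placed reads and entered no test. Their mean share was 49.9%, 23.9% and 21.0% in Ythdc1 control at 0, 3 and 6 h. In cKO it was 53.0%, 23.3% and 18.2%. Whether reads within introns fall in this class depends on the counting settings, which are not given. Of 54446 gene identifiers, 54409 were found in GENCODE M21, which gave symbols, biotypes and positions.

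Members and gene lists were chosen with earlier results of these data known. All 16 members are named, since the naming rule (highest levels, largest changes and list members) took each of them.

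The 12 Ythdc1 and the 6 Mettl3 libraries were fitted separately in edgeR 4.0.16 (TMM factors, minimum count 10, 1 coefficient per group), tested on simulated data first. Contrasts with the control 0 h or 3 h libraries carry no p. Levels are CPM of gene reads; SE is the standard error and n = 2 libraries per group. Counts without molecular identifiers limit precision at low levels. Alternatives were DESeq2 1.42.0, other scalings, no filter, a replicate block, libraries left out and other member limits. Leaving out both cKO 3 h libraries, and single libraries for the ratio of shares left at 6 h, was chosen after seeing the data.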

Additional observations from a re-analysis of the deposited data

Results flagged for a closer look

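For 13 of the 16 genes the lines labelled KO1 and KO2 differed from each other in a direct edgeR test of their libraries (9 higher and 4 lower in KO1, beside 24.5% and 21.6% of 21802 genes). The largest difference was in Spry4, at 3.37 ± 0.074 on the log2 scale (adjusted p = 2.4e-53), with 99.6 and 98.7 CPM in KO1 and 9.12 and 9.95 in KO2. Myc (2.26 ± 0.11) and Dusp6 (1.996 ± 0.14) were also higher in KO1 by a factor near or above 4. Lemd1 (0.76 ± 0.095), Gapdh (0.63 ± 0.033), Jrk (0.41 ± 0.10), Ccnl1 (0.40 ± 0.042), Ifrd1 (0.35 ± 0.061) and Clk1 (0.28 ± 0.038) were higher in KO1 by less. Lower in KO1 than in KO2 were Ccn1 (-1.85 ± 0.055), Rnf225 (-0.77 ± 0.12), Dusp1 (-0.36 ± 0.067) and Fam83e (-0.35 ± 0.13, adjusted p = 0.0263). Mettl3 itself was higher in KO1 than in KO2 by 0.51 ± 0.081 (adjusted p = 9.22e-08), the feeder markers summed to 189 to 193 CPM in KO1 and 497 in KO2, and the mesoderm markers to 22.6 to 22.96 and 9.69 to 10.2 CPM. The part of these in these differences was not tested.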

How the results depend on the processing

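For the 16 genes, the counts called lower in cKO at 3 h and at 6 h against 0 h stayed at 100% under DESeq2 size factors, gene totals, no filter, the DESeq2 Wald test, the replicate block and each library left out; spike-in scaling gave 68.8% at 3 h. For 6 h against 3 h in cKO, spike-ins gave 100% lower and 0% higher; members with at most one in 8 left were 20% lower, those with 20 CPM or more 55.6% lower and 11.1% higher; leaving out a library gave 25.0% to 37.5% lower and 6.25% to 25.0% higher. For cKO against control at 6 h, the share lower was 37.5% with spike-ins, 11.4% with the member limit at one in 4 (44 genes), 0% at one in 8 (5 genes), 11.1% at 20 CPM or more (9 genes) and 6.25% to 18.8% with a library left out; the share higher was 20% at one in 8. For KO1, the share lower was 6.25% with spike-ins, 12.5% with the DESeq2 Wald test, 40% at one in 8, 44.4% at 20 CPM or more and 12.5% to 25.0% with a library left out. For KO2, spike-ins gave 25.0% lower and 68.8% higher, beside 1458 and 12359 of the 21802 genes tested. Under the same scaling, 2985 of these genes were called lower in KO1. In the Ythdc1 fit of 17900 genes, spike-ins called 482 lower in cKO at 3 h against 0 h. They called 17412 lower and 1 higher at 6 h against 3 h, and 8330 lower in cKO against control at 6 h. Membership on the TMM scale lost Dusp1 and kept 15 genes. The cause was not tested where no sentence names one.

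Single genes turned sign as follows. With spike-ins these were, in cKO at 3 h against 0 h, Clk1 (0.027), Nodal (0.045) and Ifrd1 (0.0019); at 6 h against 3 h, Gapdh (-2.23), Dusp1 (-2.42), Myc (-2.41), Trib1 (-2.20), Rnf225 (-1.36) and Spry4 (-1.42); at 6 h against control, Lemd1 (-0.35); in KO1, Nodal (0.054); and in KO2, Clk1 (0.35), Nodal (0.44), Gapdh (0.33), Ifrd1 (0.39), Myc (0.52) and Jrk (0.16). The others were uncalled values near 0 or from few reads. In cKO at 6 h against 3 h, leaving out a library gave -0.18 to 0.075 for Lemd1, -0.78 to 1.19 for Fam83e, -0.41 to 0.018 for Dusp6 and -1.66 to 0.33 for Bambi, which stood at 0.020 with DESeq2 size factors and 0.035 with no filter. At 6 h against control it gave -0.20 to 0.50 for Lemd1, -1.39 to 0.84 for Fam83e and -1.83 to 0.15 for Bambi. In KO1, Jrk stood at -0.048 with gene totals and -0.100 to 0.13 with a library left out, and in KO2 Myc gave -0.10 to 0.025.

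Some called values kept their call but moved by over 1.5 times in fold with 1 library left out. In cKO at 3 h against 0 h the value was -2.89 for Jrk and -5.004 for Fam83e without replicate 2 at 3 h, and -3.03 for Fam83e without replicate 1. At 6 h against 0 h it was -3.93 for Jrk, -4.04 for Rnf225 and -3.82 for Bambi without replicate 2 at 6 h. For Spry4 at 6 h against control the range was 3.35 to 5.87.

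The replicate numbers did not pair the libraries (correlations of replicate deviations from -0.034 to 0.043). With the number as a replicate block, 100% were lower in cKO at 3 h and at 6 h, 31.3% lower and 25.0% higher at 6 h against 3 h, 37.5% higher against control at 6 h, and KO1 had 56.3% higher in place of 62.5%, since Trib1 passed to an adjusted p of 0.0508. A left-out library leaves a lone sample assumed to vary like the other groups. In control at 6 h, in libraries of 9638107 and 12239266 gene reads, Spry4 and Ccn1 had 1 to 7 reads each. This limits their differences between genotypes at that time.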
